A study of Mus musculus with 13 samples.

Results

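The expression of 10 genes of the TNF superfamily, 3 ligands and 7 receptors, was measured in a brain fraction enriched for blood vessels. The genes were taken by symbol: *Tnf*, *Tnfsf8*, *Tnfsf10*, *Tnfrsf1a*, *Tnfrsf1b*, *Fas*, *Tnfrsf12a*, *Ltbr*, *Cd40* and *Tnfrsf11b*. All 10 were found among the 47643 genes of the count table, and all 10 passed the filter on low counts, which left 17285 genes to test. RNA-seq had been run on 13 male CD1 mice aged 8 to 10 weeks, 1 library per mouse: 4 sham-vehicle mice, 5 that received LPS followed by vehicle (LPS-vehicle) and 4 that received LPS followed by CPD-4645 (LPS-CPD-4645). Lipopolysaccharide (LPS), a cell wall component of Gram-negative bacteria, here from Salmonella, was injected intraperitoneally at 3 mg/kg at 0, 6 and 24 h, and sham mice received saline buffer in its place. CPD-4645 inhibits monoacylglycerol lipase, the enzyme that breaks down the endocannabinoid 2-AG. It was given subcutaneously at 10 mg/kg, 30 min after each LPS dose by the sample labels, and the brains were taken at 28 h, 4 h after the last LPS dose. The brains were not perfused, so blood cells inside the vessels were part of the material, and no group received CPD-4645 without LPS.

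TNF superfamily ligands are membrane proteins that act as trimers, either on the cell surface or after cleavage, and their receptors carry cysteine-rich domains outside the cell. Receptors with a death domain, such as *Tnfrsf1a* and *Fas*, can pass a signal to caspases or, for *Tnfrsf1a*, to NF-kB. Others, such as *Tnfrsf1b*, *Cd40*, *Ltbr* and *Tnfrsf12a*, bind TRAF adaptor proteins, and *Tnfrsf11b* encodes a soluble decoy. TNF itself is made largely by myeloid cells and microglia and acts on brain endothelial cells, which then display adhesion molecules for leukocytes.

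The libraries held 7813559 to 55133373 counts (median 26989885), and values are given as CPM, read counts per library size, with library sizes corrected by TMM. The 8 endothelial markers summed to 290 to 675 CPM per library and none was at 0. The fraction also held RNA of other cells: 6 neuronal markers summed to 7066 to 9962 CPM and 5 oligodendrocyte markers to 2530 to 5631 CPM. The 8 neutrophil markers summed to 0.839 to 4.05 CPM in sham-vehicle, 46.6 to 193 CPM in LPS-vehicle and 3.24 to 18.7 CPM in LPS-CPD-4645 mice. The 7 monocyte and macrophage markers summed to 10.7 to 14.8, 25.8 to 78.3 and 10.4 to 16.0 CPM in the same order. In such bulk samples, more cells of a type and more RNA per cell cannot be told apart.

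The first comparison addresses the effect of LPS without inhibitor. Of the 10 genes, 7 were higher in LPS-vehicle than in sham-vehicle mice and none was lower. A gene was called when its adjusted p did not exceed 0.05 and its level differed by 2-fold or more. Among all 17285 genes tested, 4.68% were higher and 0.995% lower by this rule. The genes that rose were the ligands *Tnfsf8* and *Tnf* and the receptors *Fas*, *Tnfrsf1a*, *Tnfrsf1b*, *Cd40* and *Ltbr*. The median log2 fold change of the 10 genes was 1.87, beside -0.000654 over all genes tested. By the adjusted p alone 8 of the 10 were higher, beside 11.1% of all genes tested. For 8 of the 10 the lowest LPS-vehicle mouse exceeded the highest sham-vehicle mouse, which held for 9.68% of all genes tested. The filter asked for enough counts in any 4 mice, and *Tnf* and *Tnfsf8* met its minimum in 2 of the 4 sham-vehicle mice and in every mouse given LPS, so the count of calls over the 10 genes is given as a description.

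Markers of several cell types moved with LPS. The neutrophil marker sum was higher in every LPS-vehicle than in every sham-vehicle mouse, as was that of monocytes and macrophages, and the neutrophil genes *S100a8* and *S100a9* rose by log2 4.74 and 5.26. The sums of 4 other marker lists also did not overlap between these groups. Astrocyte markers summed to 1272 to 1606 CPM in sham-vehicle and 1634 to 2149 CPM in LPS-vehicle mice. Lower with LPS were the sums of oligodendrocyte markers (3835 to 5631 against 2530 to 3546 CPM), neuronal markers (8564 to 9815 against 7066 to 7933 CPM) and erythrocyte markers (468 to 957 against 239 to 460 CPM). *Gfap* was called higher (log2 2.40), 1 of 6 astrocyte markers. Of the 8 endothelial markers, *Cdh5* and *Ly6c1* were called higher (log2 1.14 and 1.17) and *Tek* and *Slco1a4* lower (log2 -1.49 and -1.12). Of the 6 microglial markers, *P2ry12* and *Siglech* were lower (log2 -3.33 and -3.18). Also lower were *Myh11*, *Acta2* and *Tagln* of 7 pericyte and smooth muscle markers (log2 -1.22, -1.15 and -1.04) and 1 of 5 choroid plexus markers, *Ttr* (log2 -1.04). The part of these shifts in the rises of the 10 genes was not tested.

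*Tnf*, the founding cytokine of the family, was low in sham-vehicle mice, at 1.08, 0.845, 0.199 and 0.198 CPM in mice 1 to 4 (38, 21, 5 and 4 counts). It stood at 5.25, 11.2, 10.2, 6.57 and 2.47 CPM in LPS-vehicle mice 1 to 5. All 5 LPS-vehicle mice were above all sham-vehicle mice, but they differed among themselves, with mouse 5 lowest. The fitted change was 11.4-fold (log2 3.51, SE 0.50, edgeR adjusted p = 5.88e-05). *Tnf* lies on chr17:35199381-35202007 (GRCm38, minus strand) and its 4 merged exons overlap no other annotated gene.

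*Tnfsf8* encodes CD30 ligand, a membrane ligand known from activated T cells and myeloid cells. It had 0.570, 0, 0.677 and 0.0988 CPM in sham-vehicle mice 1 to 4 (20, 0, 17 and 2 counts) and 25.7, 31.1, 16.9, 14.5 and 22.2 CPM in LPS-vehicle mice 1 to 5. The groups were far apart and the LPS-vehicle mice spread over little more than a doubling. The rise was 60.8-fold (log2 5.93, SE 0.58, edgeR adjusted p = 8.59e-07), the largest of the 10 genes, and its 95% interval was 4.71 to 7.14 on the log2 scale. In limma-voom the value was log2 6.84 (adjusted p = 0.000912), and the cause of this difference was not tested. *Tnfsf8* lies on chr4:63831308-63861347 (minus strand). Its receptor *Tnfrsf8* (CD30) was scarce throughout, at 1.01 ± 0.300 CPM (SD, n = 4) in sham-vehicle and 0.487 ± 0.363 CPM (SD, n = 5) in LPS-vehicle mice, and did not pass the test (log2 -0.96, edgeR adjusted p = 0.216).

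*Tnfsf10* encodes TRAIL, a ligand of death receptors that is known as an interferon-responsive gene. It stood at 4.56, 5.07, 3.82 and 3.21 CPM in sham-vehicle mice and 4.05, 4.88, 3.15, 3.29 and 3.79 CPM in LPS-vehicle mice. The groups overlapped almost fully, and the log2 difference of -0.11 had a 95% interval of -0.65 to 0.43 (edgeR adjusted p = 0.818). A doubling lies outside that interval. *Tnfsf10* lies on chr3:27317028-27342427 (plus strand).

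**Figure D1:**
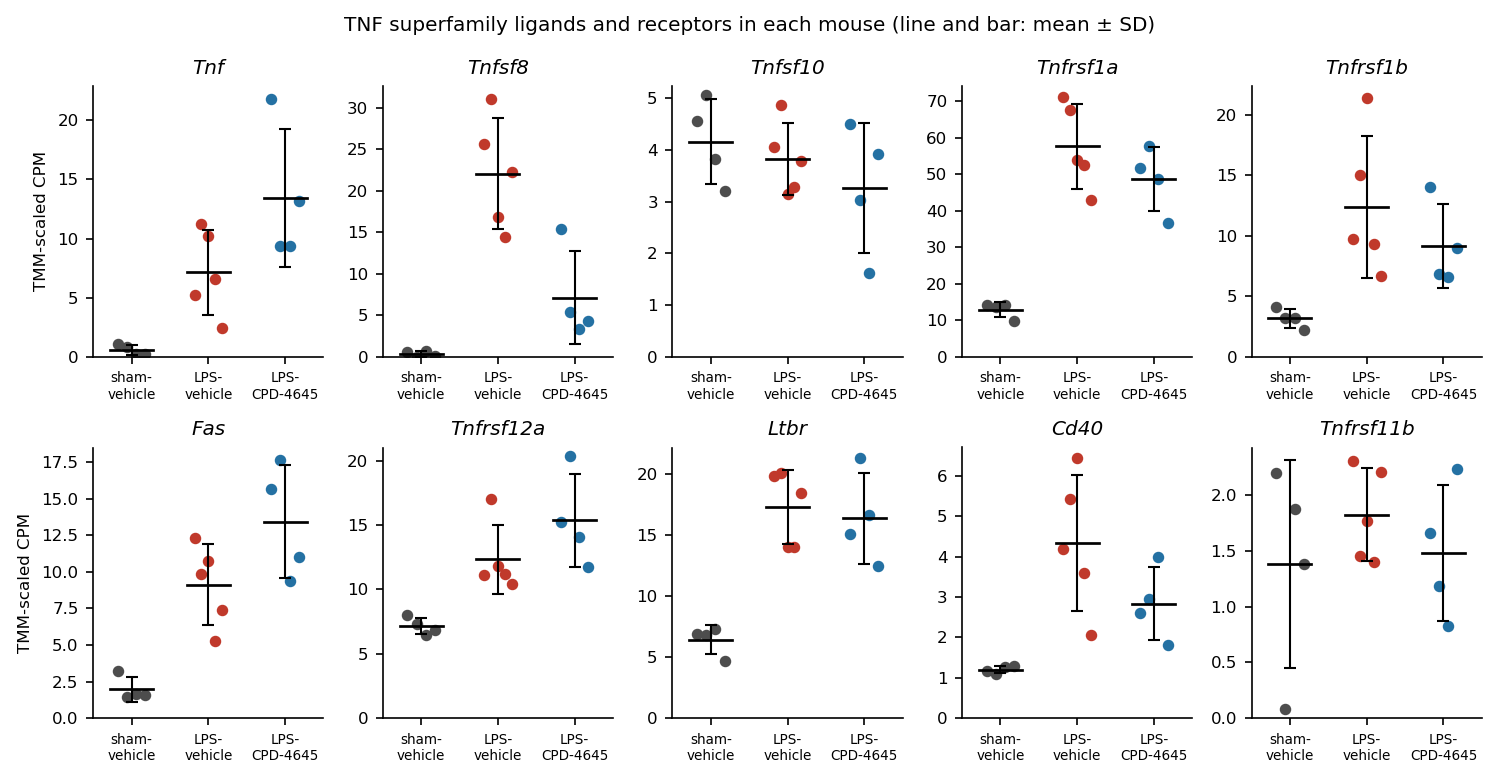
TMM-scaled CPM (vertical axis, linear, own scale for each gene) of the 10 genes in each of 13 mice, with the mean and SD of each group. In *Tnf*, *Tnfsf8*, *Tnfrsf1a*, *Tnfrsf1b*, *Fas*, *Tnfrsf12a*, *Ltbr* and *Cd40* every mouse given LPS sits above every sham-vehicle mouse, while in *Tnfsf10* and *Tnfrsf11b* the groups overlap.

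Among the receptors, *Tnfrsf1a* (TNFR1), the death domain receptor of TNF found on most cells, had the smallest adjusted p of the 10 genes. It stood at 14.1, 13.6, 14.1 and 9.88 CPM in sham-vehicle mice 1 to 4 and 71.05, 67.4, 53.9, 52.4 and 43.01 CPM in LPS-vehicle mice 1 to 5. The lowest LPS-vehicle mouse was far above the highest sham-vehicle mouse. The change was 4.44-fold (log2 2.15, SE 0.16, edgeR adjusted p = 5.53e-08). *Tnfrsf1b* (TNFR2), the TRAF-binding receptor of TNF, known from myeloid and endothelial cells, had 4.08, 3.22, 3.19 and 2.22 CPM in sham-vehicle and 9.72, 14.99, 21.4, 9.31 and 6.65 CPM in LPS-vehicle mice. It rose 3.80-fold (log2 1.93, SE 0.32, edgeR adjusted p = 0.000241), with LPS-vehicle mouse 3 highest and mouse 5 lowest. The genes lie on chr6:125349362-125362484 (plus strand) and chr4:145213463-145246870 (minus strand).

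*Fas*, the death receptor for Fas ligand, had 3.25, 1.45, 1.63 and 1.58 CPM in sham-vehicle and 12.3, 9.87, 10.7, 5.31 and 7.42 CPM in LPS-vehicle mice. Sham-vehicle mouse 1 was at about double the other sham-vehicle mice and still below every LPS-vehicle mouse. The rise was 4.49-fold (log2 2.17, SE 0.30, edgeR adjusted p = 3.51e-05). *Fas* lies on chr19:34290666-34327772 (plus strand) and an annotated small RNA gene, *Gm27818*, lies within it without sharing exon bases.

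*Cd40*, a costimulatory receptor of antigen-presenting and endothelial cells, was tight in sham-vehicle mice at 1.17, 1.09, 1.27 and 1.28 CPM and spread in LPS-vehicle mice at 4.19, 5.42, 6.43, 3.59 and 2.06 CPM. It rose 3.54-fold (log2 1.82, SE 0.32, edgeR adjusted p = 0.000499). *Ltbr*, the receptor of lymphotoxin beta and LIGHT, had 6.90, 6.84, 7.33 and 4.69 CPM in sham-vehicle and 19.8, 20.1, 13.99, 14.02 and 18.5 CPM in LPS-vehicle mice. It rose 2.68-fold (log2 1.42, SE 0.18, edgeR adjusted p = 1.74e-05), the smallest of the 7 rises. *Cd40* lies on chr2:165055627-165072948 (plus strand) and *Ltbr* on chr6:125306571-125313885 (minus strand).

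*Tnfrsf12a* encodes Fn14, the receptor of TWEAK. It had 8.01, 7.28, 6.49 and 6.86 CPM in sham-vehicle and 11.1, 17.02, 11.8, 11.2 and 10.4 CPM in LPS-vehicle mice. The groups did not overlap, but the change of 1.72-fold (log2 0.79, SE 0.18, edgeR adjusted p = 0.00414) stayed below the 2-fold minimum. *Tnfrsf11b* encodes osteoprotegerin, the decoy receptor of RANK ligand. It had 2.20, 0.0804, 1.87 and 1.38 CPM in sham-vehicle and 2.30, 1.45, 1.76, 1.40 and 2.21 CPM in LPS-vehicle mice. Sham-vehicle mouse 2 held 2 counts while the other mice of its group overlapped with the LPS-vehicle mice, and the log2 difference of 0.38 had a wide 95% interval of -0.69 to 1.46 (edgeR adjusted p = 0.660). These genes lie on chr17:23675445-23677468 and chr15:54250619-54278484 (both minus strand).

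Promoter windows of 250 bases before and 50 after a transcription start were looked up in RefSeq (GRCm38.p6), which had entries for 8 of the 10 genes. Searched on both strands, GAS elements of STAT factors (TTCNNNGAA) occurred in 3 of the 8 windows, beside 8.30% of 32851 windows of this length. The paired IRF element, GAAA repeated after 2 free bases, occurred in 1, beside 3.44%, and the AP-1 site (TGANTCA) in 1, beside 7.81%. The NF-kB consensus was not matched in these 8 windows and occurred in 4.51% of all windows. The windows of *Tnfrsf1a*, *Tnfrsf1b* and *Fas*, which rose with LPS, are shown because they hold a match. None of the 4 motifs was matched in the windows of 3 other genes that rose, *Tnf*, *Tnfsf8* and *Ltbr*. The window of *Tnf* is given beside the others. Capitals mark the matched bases, the sequence is the reference strain's and not that of CD1 mice, and a match is a description of letters and not a bound site. The *Tnfrsf1a* window (chr6:125349473-125349772, plus strand) holds a GAS element. The RefSeq start behind it lies 361 bases downstream of the GENCODE gene start given above, so this window and its GAS element lie wholly within the gene as GENCODE annotates it. The *Tnfrsf1b* window (chr4:145246821-145247120, minus strand) holds a GAS element and, next to the start, a paired IRF element. The *Fas* window (chr19:34290409-34290708, plus strand) holds an AP-1 site and a GAS element. The *Tnf* window is chr17:35201958-35202257 (minus strand).
Tnfrsf1a: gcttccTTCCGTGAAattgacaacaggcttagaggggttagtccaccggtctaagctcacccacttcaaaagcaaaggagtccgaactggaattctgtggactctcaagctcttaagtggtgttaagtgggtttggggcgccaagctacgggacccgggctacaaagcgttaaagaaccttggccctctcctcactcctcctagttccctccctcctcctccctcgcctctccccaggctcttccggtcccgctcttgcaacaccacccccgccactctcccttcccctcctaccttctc
Tnfrsf1b: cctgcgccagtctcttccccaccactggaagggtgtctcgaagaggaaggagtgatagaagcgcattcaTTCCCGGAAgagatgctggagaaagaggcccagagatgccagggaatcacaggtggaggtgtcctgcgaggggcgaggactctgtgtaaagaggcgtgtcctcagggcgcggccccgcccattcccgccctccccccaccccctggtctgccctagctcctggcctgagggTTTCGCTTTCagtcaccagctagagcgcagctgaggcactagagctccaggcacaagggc
Fas: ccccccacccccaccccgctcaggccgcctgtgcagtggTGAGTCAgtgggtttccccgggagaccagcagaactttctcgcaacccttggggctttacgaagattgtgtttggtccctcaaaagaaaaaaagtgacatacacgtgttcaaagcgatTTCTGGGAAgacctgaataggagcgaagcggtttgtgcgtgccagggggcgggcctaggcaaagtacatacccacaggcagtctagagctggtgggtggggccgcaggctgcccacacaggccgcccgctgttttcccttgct
Tnf: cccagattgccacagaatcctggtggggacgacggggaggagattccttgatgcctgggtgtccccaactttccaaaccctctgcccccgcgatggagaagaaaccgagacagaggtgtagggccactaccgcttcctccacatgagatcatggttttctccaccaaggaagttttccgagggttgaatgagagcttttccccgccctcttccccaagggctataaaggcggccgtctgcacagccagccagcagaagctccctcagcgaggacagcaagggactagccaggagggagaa

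The second comparison addresses the effect of CPD-4645 in mice given LPS. Only *Tnfsf8* was called among the 10 genes, lower with CPD-4645, and none was called higher, beside 4.19% lower and 1.70% higher among all genes tested. At an unadjusted p under 0.05, 3 of the 10 genes passed in edgeR, *Tnfsf8*, *Tnf* and *Fas*, beside 41.3% of all genes tested. By the adjusted p alone 1 of the 10 was lower and 0 were higher, beside 16.4% and 14.1% of all genes tested. Likewise limma-voom and DESeq2 called 0 higher. In none of the 10 did the groups lie apart, whereas 1914 of all genes tested (11.1%) lay apart upward and 2069 downward. The median log2 fold change of the 10 was -0.25, beside -0.02 over all genes tested. This comparison shares its LPS-vehicle mice with the first.

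*Tnfsf8* stood at 15.4, 5.39, 3.35 and 4.36 CPM in LPS-CPD-4645 mice 1 to 4, against 25.7, 31.1, 16.9, 14.5 and 22.2 CPM in LPS-vehicle mice 1 to 5. Mice 2, 3 and 4 of the LPS-CPD-4645 group lay below every LPS-vehicle mouse, whereas mouse 1 lay just above LPS-vehicle mouse 4, so the groups overlapped. The level was 3.23-fold lower (log2 -1.69, SE 0.43, 95% interval -2.58 to -0.80, edgeR adjusted p = 0.00618). Without LPS-CPD-4645 mouse 1, it was 5.04-fold lower (log2 -2.33, edgeR adjusted p = 0.000437), and with DESeq2 on all mice the call was lost (log2 -1.63, adjusted p = 0.0539).

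Blood leukocyte markers were also lower with CPD-4645 than in LPS-vehicle mice, but they differed from *Tnfsf8* against sham-vehicle mice. In LPS-CPD-4645 mice the neutrophil and the monocyte and macrophage sums overlapped with those of sham-vehicle mice. *Tnfsf8* was above every sham-vehicle mouse in each of them. The summed neutrophil markers were lower in every LPS-CPD-4645 than in every LPS-vehicle mouse, and *S100a8* and *S100a9* fell by log2 2.77 and 3.12. Of the 8 neutrophil markers 5 passed the filter, *Cxcr2* through LPS-vehicle mice alone (at most 3 counts in each other mouse), and *Ly6g*, *Mpo* and *Elane* did not pass, so calls are not counted over this list. The summed monocyte and macrophage markers were also lower in every LPS-CPD-4645 mouse, and of these genes *Lyz2* and *F13a1* were called lower. Of markers of resident cells, *Siglech*, 1 of 6 of microglia, and *Ttr*, 1 of 5 of choroid plexus, were called higher with CPD-4645 (log2 1.68 and 1.0). The log2 fold change was below 0 in 4 of the 6 microglial and 2 of the 5 choroid plexus markers. None of the 8 endothelial markers was called, and 3 were lower by the adjusted p alone, beside 16.4% of all genes tested. LPS-CPD-4645 mouse 1, with the most *Tnfsf8* of its group, also had the highest neutrophil and monocyte marker sums of its group, 18.7 and 16.0 CPM. Within the LPS-vehicle group mouse 2 had the highest neutrophil sum (193 CPM) and the most *Tnfsf8*, and mouse 4 the lowest of both (46.6 CPM of neutrophil markers). Mouse 3, at 75.4 CPM of neutrophil markers, had less *Tnfsf8* than mice 1 and 5, at 63.5 and 52.7 CPM. The order of the monocyte and macrophage sums in this group differed from that of *Tnfsf8*. Mouse 5 had the lowest monocyte and macrophage sum (25.8 CPM) at 22.2 CPM of *Tnfsf8*, whereas mouse 3 had the highest (78.3 CPM) at 16.9 CPM of *Tnfsf8*, and mouse 4 had 40.6 CPM at 14.5 CPM of *Tnfsf8*. The T and NK cell markers summed to 2.52 to 5.28 CPM with CPD-4645 and 3.89 to 4.66 CPM without it, and neither of the 2 tested was called. Of the 8, *Cd3e*, *Cd3g* and *Cd8a* were at 0 in every LPS-CPD-4645 mouse, whereas *Cd3d* held 6, 1, 0 and 5 counts in mice 1 to 4 and averaged 0.176 CPM, beside 0.0143 CPM in LPS-vehicle mice. The B cell markers summed to at most 2.74 CPM in any mouse. The part of these cells in the *Tnfsf8* result was not tested. *Tnfrsf8*, the receptor, averaged 0.505 ± 0.236 CPM (SD, n = 4) with CPD-4645 and was not called (log2 0.01, edgeR adjusted p = 0.995).

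**Figure D2:**
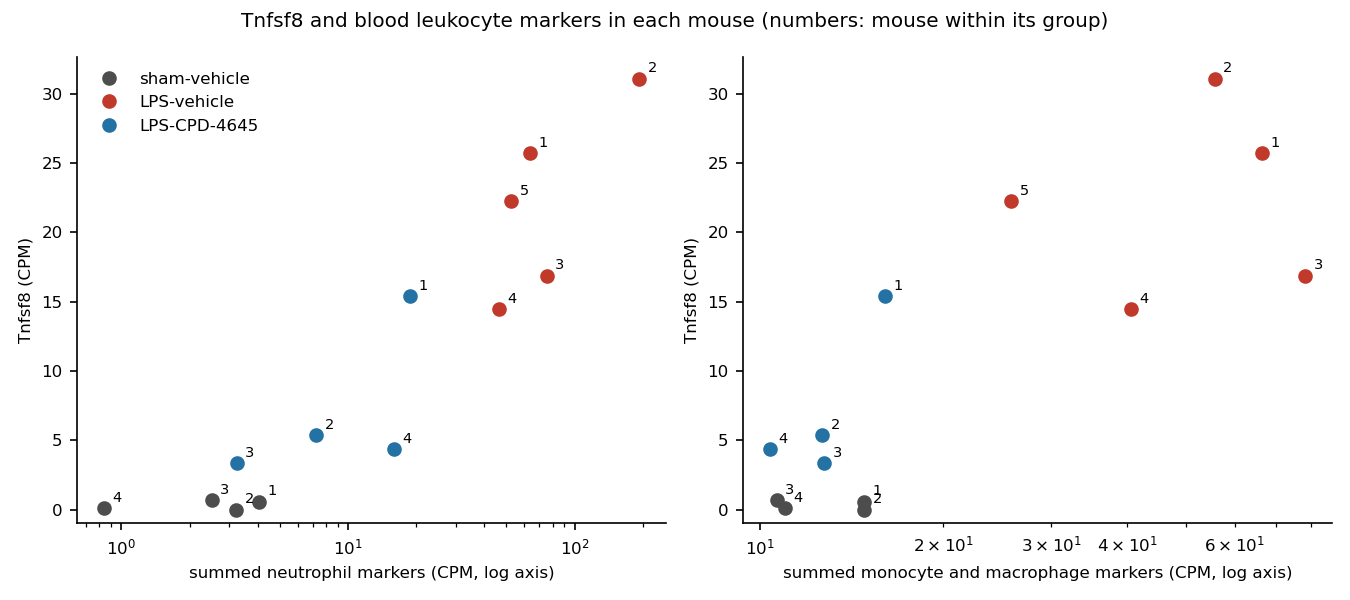
*Tnfsf8* (vertical axis, CPM) against the summed neutrophil markers (left) and monocyte and macrophage markers (right; horizontal log axes, CPM) in each of 13 mice, numbered within their group. LPS-vehicle mice have both more *Tnfsf8* and more neutrophil markers than the other mice, except that LPS-CPD-4645 mouse 1 at 15.4 CPM of *Tnfsf8* lies above LPS-vehicle mouse 4.

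*Tnf* was not called between the LPS groups. It stood at 21.8, 9.41, 9.33 and 13.2 CPM in LPS-CPD-4645 mice 1 to 4, and 2 of these lay above every LPS-vehicle mouse. The log2 difference of 0.92 (SE 0.40, 95% interval 0.08 to 1.76) did not pass the test in edgeR (adjusted p = 0.0904). Without LPS-vehicle mouse 2, the highest of its group, it was called higher (log2 1.17, edgeR adjusted p = 0.0423). Per length of transcript, there was 0.258 to 1.40 times as much *Tnf* as *Tnfsf8* in LPS-vehicle mice and 3.29 to 7.03 times as much in LPS-CPD-4645 mice. It was 0.683 to 4.65 times in the 3 sham-vehicle mice with counts of *Tnfsf8*, a range that overlaps both LPS groups. The ratio was chosen after the values were seen and is given without a test.

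None of the 7 receptors was called between the LPS groups, and all 7 overlapped. *Tnfrsf1a* had 51.5, 57.7, 48.7 and 36.6 CPM in LPS-CPD-4645 mice (log2 -0.25, 95% interval -0.56 to 0.07). *Ltbr* had 15.02, 21.3, 16.6 and 12.5 CPM (log2 -0.08, 95% interval -0.45 to 0.28). Both intervals leave out a halving.

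*Tnfrsf1b* had 14.1, 6.85, 6.62 and 9.03 CPM (log2 -0.43, 95% interval -1.05 to 0.19). *Cd40* had 2.61, 2.94, 3.99 and 1.81 CPM (log2 -0.58, 95% interval -1.22 to 0.05, edgeR adjusted p = 0.156). For this pair a halving lies within the interval, and neither receptor was called. *Fas* had 15.7, 17.7, 9.37 and 11.03 CPM, with mice 1 and 2 above every LPS-vehicle mouse (log2 0.56, 95% interval 0.01 to 1.12, edgeR adjusted p = 0.115). *Tnfrsf12a* had 15.3, 20.3, 14.1 and 11.8 CPM (log2 0.31, 95% interval -0.05 to 0.68). *Fas* and *Tnfrsf12a* were not called. *Tnfrsf11b* had 1.66, 1.19, 0.828 and 2.24 CPM (log2 -0.31, 95% interval -1.39 to 0.77). The ligand *Tnfsf10* had 4.51, 3.04, 1.62 and 3.92 CPM (log2 -0.26, 95% interval -0.82 to 0.30), with mouse 3 lowest.

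The third comparison sets mice given LPS and CPD-4645 against sham-vehicle mice. Of the 10 genes, 8 were higher and none was lower, beside 6.11% higher and 4.98% lower among all genes tested. In these 8 genes every LPS-CPD-4645 mouse lay above every sham-vehicle mouse, which held for 18.7% of all genes tested. The median log2 fold change of the 10 genes was 1.42, beside -0.01 over all genes tested. *Tnf* was 21.5-fold higher (log2 4.43, SE 0.52, edgeR adjusted p = 4.17e-06) and *Tnfsf8* 18.8-fold higher (log2 4.24, SE 0.59, edgeR adjusted p = 2.23e-05). The *Tnfsf8* value was 12.1-fold without LPS-CPD-4645 mouse 1 (log2 3.59, edgeR adjusted p = 3e-05).

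The log2 fold changes of the receptors were 2.73 for *Fas*, 1.91 for *Tnfrsf1a*, 1.5 for *Tnfrsf1b*, 1.34 for *Ltbr*, 1.24 for *Cd40* and 1.10 for *Tnfrsf12a*, with edgeR adjusted p from 2.02e-07 for *Tnfrsf1a* to 0.00674 for *Cd40*. *Tnfrsf12a* had missed the 2-fold minimum in LPS-vehicle mice and passed it here at 2.14-fold, but it fell below it again without LPS-CPD-4645 mouse 2 (log2 0.93). *Tnfsf10* and *Tnfrsf11b* were not called (log2 -0.37, 95% interval -0.95 to 0.21, and log2 0.08, 95% interval -1.07 to 1.22). The sham-vehicle mice are the same as in the first comparison. The summed neutrophil markers of LPS-CPD-4645 mice (3.24 to 18.7 CPM) overlapped with those of sham-vehicle mice (0.839 to 4.05 CPM), as did the monocyte and macrophage markers. The summed microglial markers did not overlap, at 119 to 144 CPM in LPS-CPD-4645 and 174 to 229 CPM in sham-vehicle mice, and *P2ry12*, *Siglech* and *Tmem119* were called lower (log2 -3.38, -1.49 and -1.43). The neutrophil genes *S100a8* and *S100a9* were called higher (log2 1.98 and 2.15). So were *Gfap*, 1 of 6 astrocyte markers, and *Cdh5*, 1 of 8 endothelial markers (log2 1.94 and 1.12). Called lower were *Tek* and *Kdr*, 2 of the 8 endothelial markers (log2 -1.39 and -1.02). So were *Myh11*, 1 of 7 pericyte and smooth muscle markers, and *Col1a1*, 1 of 5 fibroblast markers (log2 -1.24 and -1.28). Of these 5, 2 had a log2 fold change above 0, and the fibroblast sums overlapped. The part of these shifts in the third comparison was not tested.

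**Figure D3:**
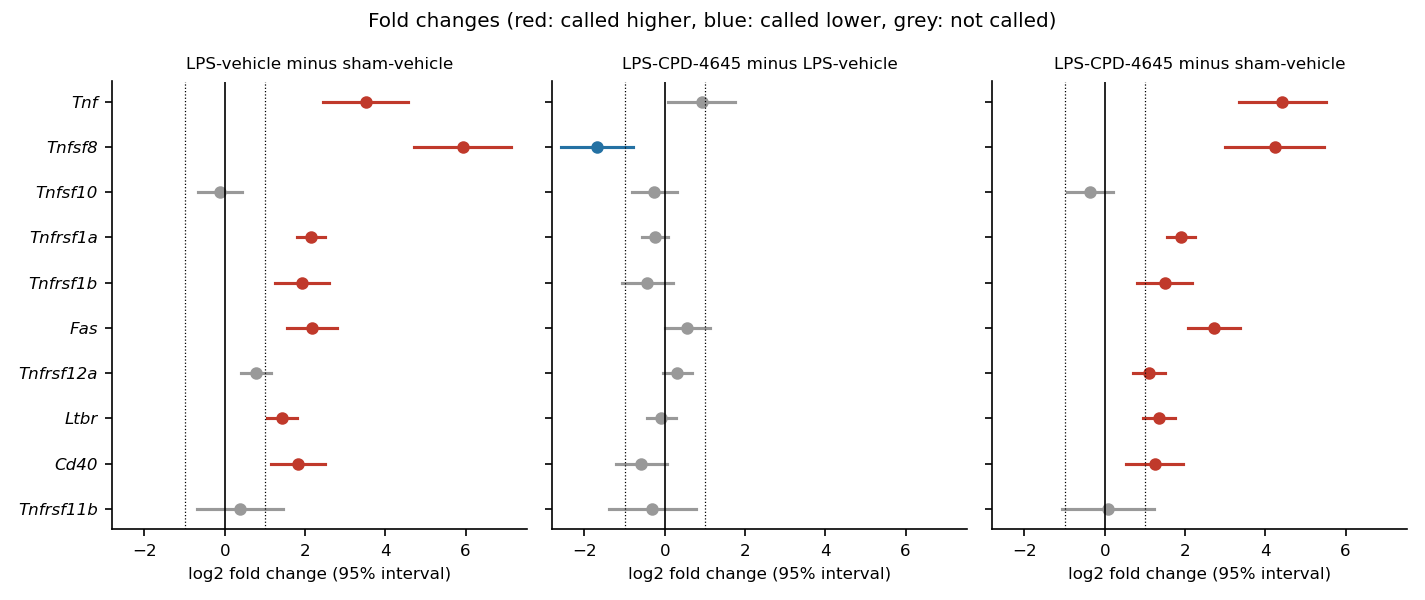
Log2 fold changes (horizontal axis) of the 10 genes with their 95% intervals from edgeR in the 3 comparisons, with dotted lines at a 2-fold change. With LPS 7 genes were called higher, with CPD-4645 in LPS mice *Tnfsf8* alone was called, at -1.69, and against sham-vehicle mice 8 genes were called higher in LPS-CPD-4645 mice.

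Levels of different genes were set side by side only per length of merged exons, as CPM per kilobase (RPKM). In sham-vehicle mice *Tnfrsf1a* led at 4.99 ± 0.790 RPKM (SD, n = 4), followed by *Tnfrsf12a* at 3.71 ± 0.338 and *Ltbr* at 2.74 ± 0.504. The ranges of the first 2 overlapped. *Fas*, *Tnfrsf1b*, *Tnfsf10* and *Tnfrsf11b* followed between 0.959 and 0.491 RPKM on average and each overlapped with the next, then *Tnf* (0.355), *Cd40* (0.353) and, last, *Tnfsf8* (0.0884 ± 0.0885). In LPS-vehicle mice *Tnfrsf1a* stood alone at 22.2 ± 4.45 RPKM (SD, n = 5). *Tnfsf8* had moved from the last to the fourth place at 5.80 ± 1.76 RPKM, level with *Tnfrsf12a* before it and *Fas* after it. In LPS-CPD-4645 mice *Tnfrsf1a* led again at 18.8 ± 3.43 RPKM (SD, n = 4), *Tnf* was second at 8.20 ± 3.58, overlapping with *Tnfrsf12a*, and *Tnfsf8* was seventh at 1.87 ± 1.47. The TNFR1 gene exceeded the TNFR2 gene in every mouse, by 5.11 to 6.55 times in sham-vehicle, 3.71 to 10.8 times in LPS-vehicle and 5.40 to 12.4 times in LPS-CPD-4645 mice.

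**Figure D4:**
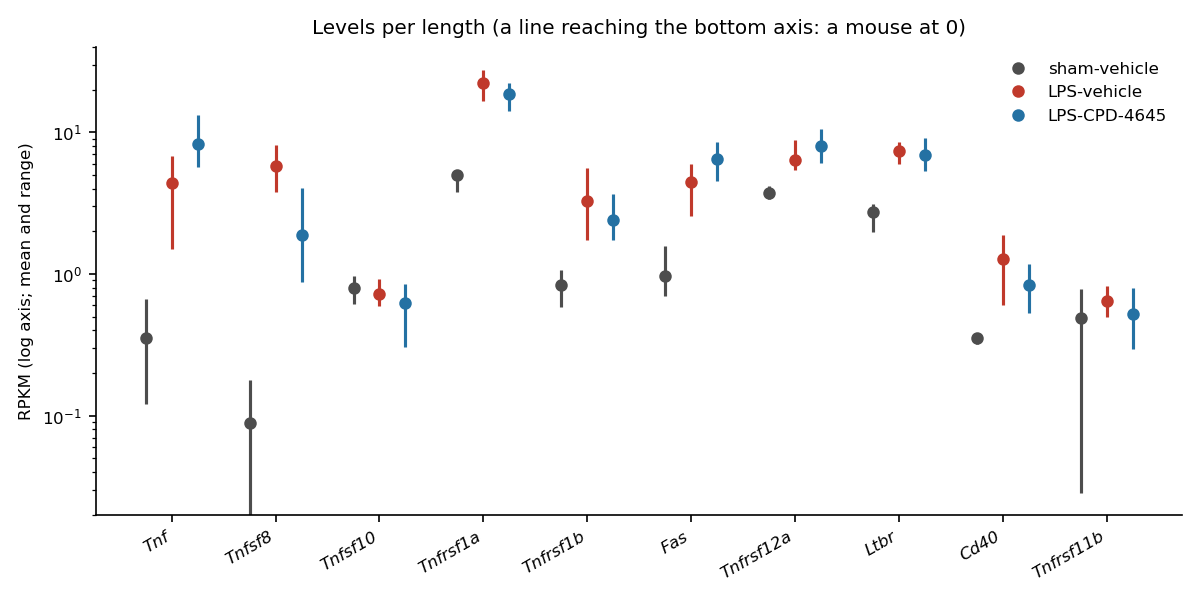
Levels per length (RPKM, log axis) of the 10 genes, with the mean as a point and the range over mice as a line for each group. *Tnfrsf1a* is highest in each group, and *Tnfsf8* goes from 0.0884 RPKM in sham-vehicle mice to 5.80 RPKM with LPS and 1.87 RPKM with LPS and CPD-4645.

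The genes with the profile most like that of a member over the 13 mice were named by the smallest root mean square difference of standardised log2 CPM among 14844 other genes, as a description. For *Tnf* they were the metallothionein gene *Mt2* (0.253 SD), *Inpp5k* (0.254 SD) and *Tnfaip3* (0.272 SD), which encodes the NF-kB inhibitor A20. *Mt2* averaged 152 CPM in sham-vehicle mice, 1055 CPM with LPS and 1994 CPM with LPS and CPD-4645. For *Tnfrsf1a* they were *Osmr*, the oncostatin M receptor (0.160 SD), *Aspg* (0.169 SD) and *Angptl4* (0.180 SD), and *Osmr* averaged 4.75, 44.4 and 38.8 CPM in the same order of groups. For *Tnfsf8* they were the TRAIL receptor gene *Tnfrsf10b* (0.233 SD), the tubulin gene *Tubb6* (0.245 SD) and *Msn* (0.251 SD), which encodes moesin. The genes nearest to *Tnfsf10* lay farther off, *Pdzph1*, *Cdkn2b* and *Gm20715* being at 0.432, 0.517 and 0.531 SD.

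Of 15 other ligands of the superfamily, 9 passed the filter, and *Cd40lg* and *Tnfsf4* held no count in any of 13 mice. With LPS *Tnfsf9* and *Tnfsf11* were called higher and none was lower, beside 4.68% and 0.995% of all genes tested. *Tnfsf11* met the filter's minimum in 3 LPS-vehicle mice, 1 LPS-CPD-4645 mouse and no sham-vehicle mouse, so its call is not read against that share. *Tnfsf9* (4-1BB ligand) rose from 1.35 ± 0.425 (SD, n = 4) to 6.98 ± 3.06 CPM (SD, n = 5; log2 2.32, edgeR adjusted p = 6.61e-05), and 192 of its exon bases lie opposite the noncoding gene *Gm11110*. *Tnfsf11* (RANK ligand), the ligand bound by osteoprotegerin, held at most 2 counts in each sham-vehicle mouse and 6 to 33 in LPS-vehicle mice. Against a floor of 3 counts per library it was at least 6.31-fold higher. Its call was lost without sham-vehicle mouse 1 (edgeR adjusted p = 0.0505), and without LPS-vehicle mouse 1, 2 or 3 the gene did not pass the filter.

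With CPD-4645, *Lta* (lymphotoxin alpha), the neighbour of *Tnf* and a ligand of the same receptors, was the only one of the 9 ligands called, beside 1.70% higher and 4.19% lower among all genes tested (median log2 fold change of the 9, 0.07). It stood at 0.378, 1.90, 0.630, 0.712 and 0.507 CPM in LPS-vehicle and 2.29, 5.18, 1.88 and 4.04 CPM in LPS-CPD-4645 mice. LPS-vehicle mouse 2 overlapped with LPS-CPD-4645 mouse 3, and the other LPS-vehicle mice were below the whole LPS-CPD-4645 group. The log2 difference was 1.96 (SE 0.52, edgeR adjusted p = 0.00879), and 2.60 without LPS-vehicle mouse 2. *Lta* had not passed the test with LPS alone (log2 0.26, edgeR adjusted p = 0.794). Against sham-vehicle mice 3 of the 9 ligands were higher in LPS-CPD-4645 mice, beside 6.11% of all genes tested, *Tnfsf9* (log2 2.39), *Lta* (2.22) and *Fasl* (2.06), the last, the ligand of *Fas*, at 0.549 to 0.949 CPM and lost without sham-vehicle mouse 1. *Fasl* met the filter's minimum in no sham-vehicle mouse, so its call is not read against that share.

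Of 21 other receptors, 16 passed the filter. With LPS 1 of the 16 was higher, *Tnfrsf10b*, the receptor of TRAIL (log2 2.30, edgeR adjusted p = 0.000457), and none was lower, close to the shares of all genes (4.68% and 0.995%) (median of the 16, log2 0.13). *Tnfrsf10b* met the filter's minimum in 2 sham-vehicle mice and in every mouse given LPS, so this count of calls is given as a description. With CPD-4645 1 of the 16 was lower, again close to the share of all genes (4.19%), with a median of 0.01. It was *Tnfrsf25* (DR3), a death domain receptor known from T cells. It stood at 4.14, 5.59, 6.49 and 6.27 CPM in sham-vehicle, 7.69, 2.64, 10.6, 5.70 and 4.86 CPM in LPS-vehicle and 3.16, 1.54, 1.54 and 1.65 CPM in LPS-CPD-4645 mice. All LPS-CPD-4645 mice lay below all sham-vehicle mice, and mouse 1 overlapped with the lowest LPS-vehicle mouse. The log2 difference from LPS-vehicle mice was -1.68 (SE 0.34, edgeR adjusted p = 0.00146). Against sham-vehicle mice 3 of the 16 receptors were higher and 1 lower, beside 6.11% and 4.98% of all genes tested. *Tnfrsf25* was lower (log2 -1.55), and *Tnfrsf10b* (1.74), *Tnfrsf4* (OX40, 1.60) and *Relt* (1.09) were higher.

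Among 18 adaptors and kinases of the TNF receptor pathway, all tested, 3 were higher with LPS and none lower, beside 4.68% and 0.995% of all genes tested (median log2 fold change of the 18, 0.15). *Birc3* (cIAP2), a ubiquitin ligase of the TNFR1 complex, rose from 1.88 ± 0.996 (SD, n = 4) to 20.01 ± 7.33 CPM (SD, n = 5; log2 3.39, edgeR adjusted p = 3.92e-06). *Traf1* had a log2 fold change of 1.43 and *Ripk1* of 1.40. *Ripk1* (edgeR adjusted p = 0.0428) lost its call when any 1 of 8 of the 13 mice was left out, among them every sham-vehicle mouse, and it shares 511 exon bases with the pseudogene *Gm17084* and 241 with *Serpinb6a*. With CPD-4645 none of the 18 was called against LPS-vehicle mice. Against sham-vehicle mice *Birc3* was higher (log2 3.34), 1 of 18, and none was lower, beside 6.11% and 4.98% of all genes tested.

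The 6 inhibitors of the pathway were all tested. With LPS 3 were higher, *Tnfaip3* (log2 2.31, edgeR adjusted p = 0.000188), its binding partner *Tnip1* (1.16) and the caspase-8 inhibitor *Cflar* (1.11), and none was lower (median of the 6, 0.88, with 4.68% of all genes tested higher and 0.995% lower). *Tnip1* fell below the 2-fold minimum without LPS-vehicle mouse 2. With CPD-4645 none was called against LPS-vehicle mice. Against sham-vehicle mice *Tnfaip3* (log2 2.84) and *Tnip2* (1.0, at the 2-fold limit and lost without any 1 of 3 mice) were higher. These were 2 of 6 and none was lower, beside 6.11% and 4.98% of all genes tested. Of 5 death effectors, *Ripk3* and *Mlkl*, the kinase and the pore-forming protein of necroptosis, were higher with LPS (log2 2.39 and 2.34, edgeR adjusted p = 0.00670 and 0.00546), 2 of 5 beside 4.68% of all genes tested (median of the 5, log2 0.97). Both were also higher in LPS-CPD-4645 than in sham-vehicle mice (log2 2.41 and 1.95), 2 of 5 beside 6.11% of all genes tested. None of the 5 was called between the LPS groups. *Ripk3* met the filter's minimum in no sham-vehicle mouse and *Mlkl* in 2 of them, so their calls are not read against these shares. Levels of both were low, at 0.126 to 1.72 and 0.882 to 2.16 CPM in LPS-vehicle mice.

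Of 5 genes of ligand shedding, *Rhbdf2* (iRhom2), which escorts the TNF-cleaving protease to the cell surface, rose from 2.74 ± 0.540 (SD, n = 4) to 13.7 ± 4.30 CPM (SD, n = 5; log2 2.30, edgeR adjusted p = 2.04e-06). It was also higher in LPS-CPD-4645 than in sham-vehicle mice (log2 1.73), 1 of 5 beside 6.11% of all genes tested. None of the 5 was called between the LPS groups. With LPS, *Rhbdf2* was 1 of 5 called higher and none was lower, beside 4.68% and 0.995% of all genes tested (median of the 5, log2 0.35). Of 7 genes named as TNF-induced proteins, *Tnfaip2* was at 0.597 to 1.61 CPM in sham-vehicle mice and rose with LPS to between 5.34 and 50.9 CPM (log2 4.21, edgeR adjusted p = 1.31e-05), and 314 of its exon bases lie opposite the antisense gene *Gm40578*. *Tnfaip6* fell (log2 -1.01, edgeR adjusted p = 0.000694) but lost its call, by size, without any 1 of 5 mice, in limma-voom (log2 -0.90) and with a replicate block (log2 -0.95). With all mice 1 of the 7 was higher and 1 lower, beside 4.68% and 0.995% of all genes tested (median of the 7, log2 0.26). *Tnfaip2* was higher in LPS-CPD-4645 than in sham-vehicle mice (log2 3.30), 1 of 7 beside 6.11% of all genes tested. None of the 7 was called between the LPS groups.

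Between the LPS groups, these 5 lists of adaptors, inhibitors, death effectors, shedding genes and TNF-induced proteins held no gene called in edgeR, limma-voom or DESeq2 with all mice. With a replicate block, *Traf1*, an adaptor, and *Tnfaip2*, a TNF-induced gene, were called lower (log2 -1.08 and -1.07, edgeR adjusted p = 0.0198 and 0.0191). *Traf1* was also called lower without LPS-vehicle mouse 4 or 5 (log2 -1.08 and -1.10), and *Tnfaip2* without LPS-vehicle mouse 5 (log2 -1.17). Their median log2 fold changes were, in this order, -0.10, 0.12, -0.18, -0.40 and -0.37, beside -0.02 over all genes tested. The unadjusted p in edgeR was under 0.05 for 8 of 18 adaptors and kinases, 4 of 6 inhibitors, 1 of 5 death effectors, 4 of 5 shedding genes and 5 of 7 TNF-induced proteins, beside 41.3% of all genes tested. By the adjusted p alone, with no minimum change, 3 of the 18 adaptors and kinases were higher and 3 lower with CPD-4645, near the 14.1% and 16.4% of all genes tested, so these counts set the list apart in neither direction. Of these 6 genes, 4 are given as single values, chosen after their values were seen. *Tradd* and *Fadd*, the death domain adaptors of *Tnfrsf1a* and *Fas*, were lower in LPS-CPD-4645 than in LPS-vehicle mice. *Tradd* stood at 11.6, 9.54, 10.1, 8.49 and 9.63 CPM in LPS-vehicle mice and 7.04, 6.05, 5.83 and 4.94 CPM in LPS-CPD-4645 mice (log2 -0.73, edgeR adjusted p = 0.00237). *Fadd* stood at 3.85, 3.84, 4.92, 4.11 and 4.59 CPM and 2.21, 2.06, 2.37 and 2.43 CPM (log2 -0.90, edgeR adjusted p = 0.00188). In both genes the groups did not overlap, as in 2069 of 17285 genes tested that lay apart downward. *Fadd* shares 239 exon bases with its antisense gene *Faddos*. *Tab1* and *Tab2*, adaptors of the kinase TAK1, were higher without overlap (log2 0.62 and 0.42, edgeR adjusted p = 0.00149 and 0.00182), as were 11.1% of all genes tested.

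**Figure D5:**
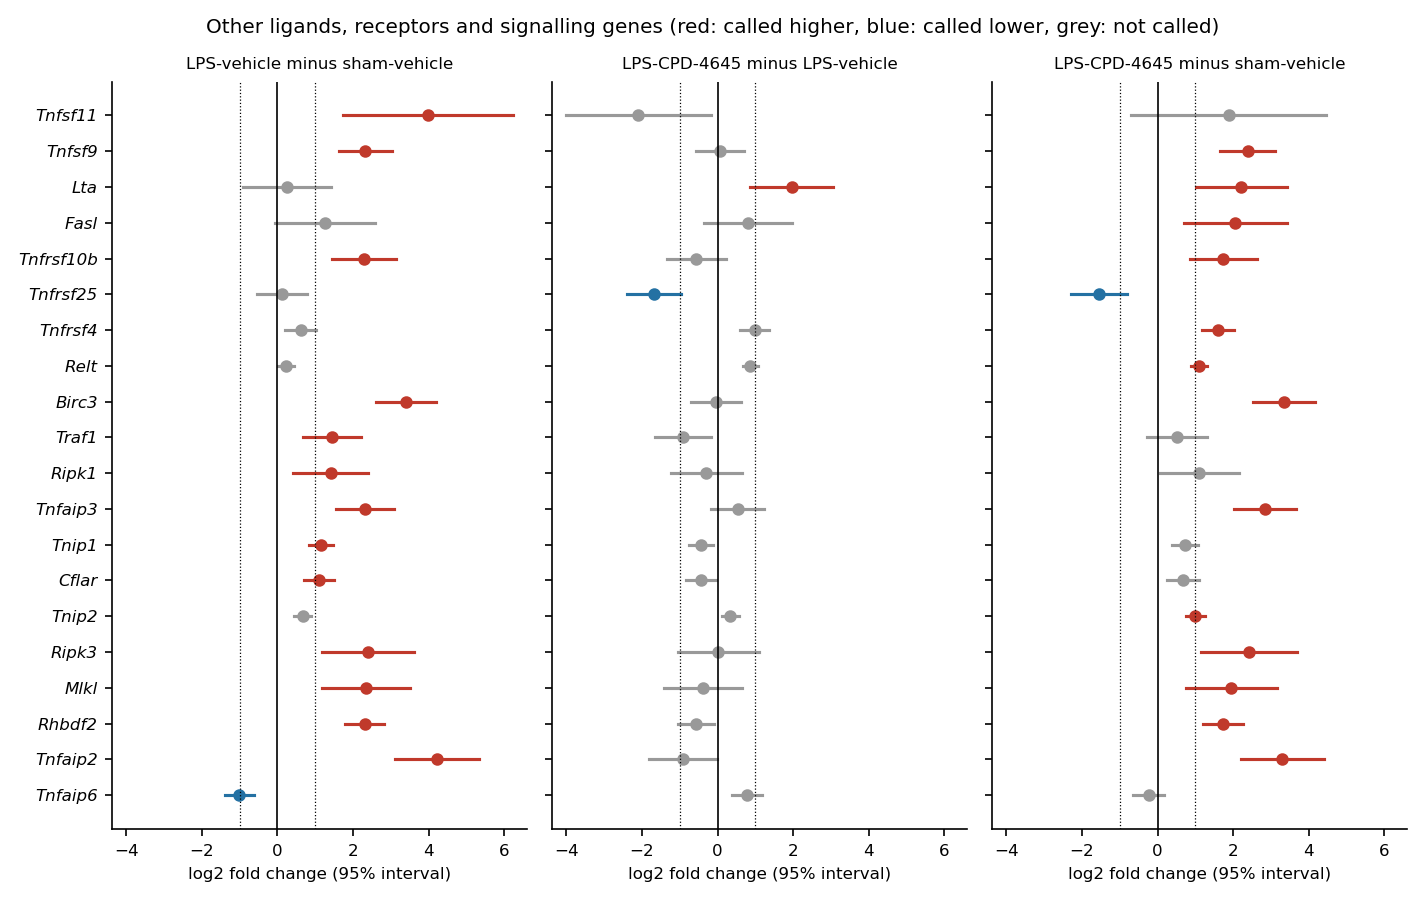
Log2 fold changes (horizontal axis) with 95% intervals from edgeR of the 20 other ligand, receptor and signalling genes called in at least 1 of the 3 comparisons, with dotted lines at a 2-fold change. Most were called with LPS, and between the LPS groups *Lta* alone was called higher, at 1.96, and *Tnfrsf25* alone lower, at -1.68. The fitted value of *Tnfsf11* against sham-vehicle mice rests on at most 2 counts per sham-vehicle mouse and is not a measured size.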

How the data were processed

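Whole-number counts per gene, with no normalization, were deposited by the authors for 13 libraries, each of 1 mouse. Per the labels, libraries were TruSeq Stranded mRNA, and reads were aligned to mm10 (GRCm38) with STAR 2.5.2a. The study counted on GENCODE M9, and which strand column was kept is not given in the sources used here. Groups and mouse numbers were taken from the labels.

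Symbols, exon lengths and overlaps were taken from GENCODE M21 (GRCm38), to which 47224 of 47643 identifiers matched. Genes were kept by filterByExpr (minimum count 10, minimum total 15) and fitted in edgeR 4.0.16 (R 4.3.3; quasi-likelihood, TMM) with all 13 mice in 1 fit. Calls needed a p that stayed at or under 0.05 after Benjamini-Hochberg adjustment over 17285 genes, and a 2-fold or larger change, the study's minimum. Scripts were tested on simulated data. The spread between mice exceeded counting error in each of 22 replicate pairs, and depth limited genes near 3 counts most. Alternatives were limma-voom (limma 3.58.1), DESeq2 1.42.0 and its size factors, other count filters, only the groups compared, no minimum fold change, a replicate block and each mouse left out.

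The members and the gene lists were chosen with earlier results of these data known. Each member was named with its value in every mouse, other listed genes where called, at most 4 per list and comparison, and the 3 genes nearest in profile for *Tnf*, *Tnfrsf1a*, *Tnfsf8* and *Tnfsf10*. Python 3.11.15, pandas 2.3.3 and matplotlib 3.10.9 were used.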

Additional observations from a re-analysis of the deposited data

Results flagged for a closer look

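In 8 of 90 sets of 1 gene in 1 group, over the 30 genes named for their calls or as members, 1 mouse stood apart from the rest of its group by Dixon's criterion, which chance meets in about 1 in 20 sets. *Tnfrsf1a* was lowest in sham-vehicle mouse 4, at 9.88 CPM beside 13.6 to 14.1 CPM in the other mice of the group. *Tnfsf8* was highest in LPS-CPD-4645 mouse 1, at 15.4 CPM beside 3.35 to 5.39 CPM in the other mice of the group. *Tnfrsf12a* was highest in LPS-vehicle mouse 2, at 17.02 CPM beside 10.4 to 11.8 CPM in the other mice of the group. *Fas* was highest in sham-vehicle mouse 1, at 3.25 CPM beside 1.45 to 1.63 CPM in the other mice of the group. *Tnfsf9* was highest in LPS-CPD-4645 mouse 3, at 8.69 CPM beside 6.63 to 6.80 CPM in the other mice of the group. *Lta* was highest in LPS-vehicle mouse 2, at 1.90 CPM beside 0.378 to 0.712 CPM in the other mice of the group. *Tnfrsf25* was highest in LPS-CPD-4645 mouse 1, at 3.16 CPM beside 1.54 to 1.65 CPM in the other mice of the group. *Birc3* was lowest in sham-vehicle mouse 2, at 0.402 CPM beside 2.17 to 2.48 CPM in the other mice of the group. LPS-CPD-4645 mouse 1 and LPS-vehicle mouse 2 each account for a pair of these values.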

How the results depend on the processing

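None of the 627 values of the 10 genes under the alternatives reversed a call. Under DESeq2, 0 members were lower with CPD-4645 against LPS-vehicle mice in place of 1. Leaving out 1 mouse at a time gave 0 to 1 members called higher in that comparison (1 without LPS-vehicle mouse 2), 1 lower in each case, 7 higher with LPS in each case, and 7 to 8 higher against sham-vehicle mice. The cause of these differences was not tested. Without LPS-CPD-4645 mouse 1 and LPS-vehicle mouse 3, the shallowest library of each group, an alternative chosen after seeing the data, the counts of members called were 7, 1 and 8 as with all mice, and *Tnfsf8* was 5.35-fold lower with CPD-4645. With no minimum fold change, the calls over all genes went from 809 higher and 172 lower with LPS, 294 and 725 with CPD-4645, and 1056 and 861 for LPS-CPD-4645 against sham-vehicle mice to 1915 higher and 1531 lower with LPS, 2432 and 2839 with CPD-4645, and 3375 and 3338 for LPS-CPD-4645 against sham-vehicle mice. When genes had to average 50 counts or more, 113 genes were lower with LPS and 123 higher with CPD-4645, and *Tnfrsf11b* was not tested. Mouse numbers in the labels did not pair the mice: same-numbered mice of different groups deviated with correlations from -0.03 to 0.11, over 0.1 in 1 of 12 pairs. A replicate block gave 7, 1 and 8 members called, and *Tnfsf8* at log2 -1.83 (edgeR adjusted p = 0.0028). Of the 30 calls of other named genes, 24 were kept under each alternative that tested them, and none reversed. Depth limits *Tnfsf8*, *Tnf* and *Tnfsf11* in sham-vehicle mice, and with 1 library per mouse, differences between mice and between libraries cannot be told apart.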

Other observations

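Of 66 other genes of the ligand, receptor and signalling lists that were tested, 8 lay apart upward and 6 downward between the LPS groups, by less than 2-fold in each of these 14, beside 11.1% and 2069 of 17285 over all genes tested. These counts are near the shares over all genes and set the lists apart in neither direction. Of the 14 genes, 3 are given as single values, picked after their values were seen. *Adam17* encodes the protease that releases TNF and both of its receptors from the cell surface. It stood at 22.2, 23.2, 23.7 and 22.9 CPM in sham-vehicle, 33.9, 27.8, 30.5, 29.1 and 25.2 CPM in LPS-vehicle and 16.3, 16.9, 16.4 and 16.2 CPM in LPS-CPD-4645 mice. All 4 LPS-CPD-4645 mice lay below all other mice, with log2 differences of -0.83 from LPS-vehicle (edgeR adjusted p = 1.93e-05) and -0.48 from sham-vehicle mice (edgeR adjusted p = 0.00140). The gene shares 311 exon bases with *Iah1* on the other strand. Its escort *Rhbdf2* stood at 9.18 ± 1.47 CPM (SD, n = 4) in LPS-CPD-4645 mice and did not pass the test against LPS-vehicle mice (log2 -0.57, edgeR adjusted p = 0.0605).

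*Relt* and *Tnfrsf4*, receptors of the superfamily, lay the other way. *Relt* had 24.7, 32.1, 29.5, 28.6 and 27.6 CPM in LPS-vehicle and 48.4, 46.5, 60.03 and 52.9 CPM in LPS-CPD-4645 mice (log2 0.87, edgeR adjusted p = 9.64e-06). *Tnfrsf4* had 4.60, 4.36, 5.55, 3.998 and 3.73 CPM in LPS-vehicle and 9.65, 8.08, 8.13 and 8.87 CPM in LPS-CPD-4645 mice (log2 0.98, edgeR adjusted p = 0.00085), and passed the 2-fold minimum with limma-voom (log2 1.01). In both genes all 4 LPS-CPD-4645 mice were above all LPS-vehicle mice, which held for 11.1% of all genes tested. The ligand of *Tnfrsf4*, *Tnfsf4*, held no count in any mouse.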
